A study of Mus musculus with 4 samples.

Results

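The comparison described here set the LPS library titled KO against the LPS library titled WT, in bone marrow-derived macrophages 3 h after lipopolysaccharide. Its members were all genes with a mean of at least 1 CPM (counts scaled to library size by the TMM method) over the 4 libraries of the study, which kept 12326 of 54532 genes. The 2 LPS libraries are 2 of 4 samples, 1 per group, so every difference below is a difference between 2 libraries with no replicate check, and no p-value was computed. Nothing in the labels says from how many animals either library came.

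Macrophages were grown for 6 days from marrow of C57BL/6 mice aged 6 to 8 weeks, with 10% serum and 20% medium conditioned by L929 cells, which supply macrophage colony-stimulating factor. Per the series' design text, all mice carried floxed Fbxw7 alleles (FBXW7f/f). Animals titled KO also carried LysM-cre, a Cre recombinase driven from the lysozyme gene Lyz2 and active in macrophages, neutrophils and other myeloid cells, so deletion need not reach every cell. Both libraries compared here received LPS, at a dose the labels do not state, and the untreated libraries titled WT and KO serve as a second pair of the same contrast. The genotype tags go against the titles: both LPS libraries are tagged LysM-cre FBXW7f/f and both untreated libraries FBXW7f/f. Groups here follow the titles, and with 1 library per title no result can be given without the libraries in doubt. Every direction below rests on the titles of the LPS pair, and if those were exchanged each call would turn and the counts of genes called higher and lower would trade places.

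FBXW7 is an F-box protein, the part of an SCF ubiquitin ligase that picks phosphorylated proteins such as cyclin E, MYC, JUN and NOTCH for degradation. LPS binds TLR4 with the help of CD14 and MD-2, and signals through MyD88 to NF-kB and AP-1 and through TRIF to IRF3 and interferon beta. Within hours macrophages then make cytokines, chemokines and interferon-stimulated genes, and most stop dividing.

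The LPS libraries held 20947275 counts (WT title) and 19464937 counts (KO title), and detected 19498 and 19258 genes. Mitochondrial genes took 1.23 and 1.52% of counts. Folds below are ratios of TMM-scaled CPM, followed by a 95% exact binomial interval that covers counting error only and holds no spread between animals or cultures. A gene was called higher or lower when its log2 ratio, with 2 counts added, reached 2-fold and that interval excluded no change. In these bulk samples, fewer cells of a type and less RNA per cell cannot be told apart.

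Transcripts lower in the KO-titled library outnumbered those higher. Of 12326 genes 414 (3.36%) were called higher and 587 (4.76%) lower, 1001 (8.12%) in all. The median log2 ratio was −0.02, with 5th and 95th percentiles of −0.99 and 0.85, so most of the transcriptome lay well inside 2-fold. Called genes made up 16.3% of the quartile of genes with the lowest level and 4.02% of the highest quartile. At the edge of the membership rule, Tmem267 (mean 0.9995 CPM) fell just outside and Slc25a27 (1.0004 CPM) just inside. In the authors' deposited table, 302 genes passed an adjusted p of 0.05 for this contrast, 120 above and 182 below 0. Of these, 281 were among the 12326, and all 281 were called in the same direction here, from the same 2 libraries, so this is no separate evidence. Most of the 1001 genes called here did not pass the authors' adjusted p, Ccl7, Cd14 and H2-K1 among them.

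**Figure D1:**
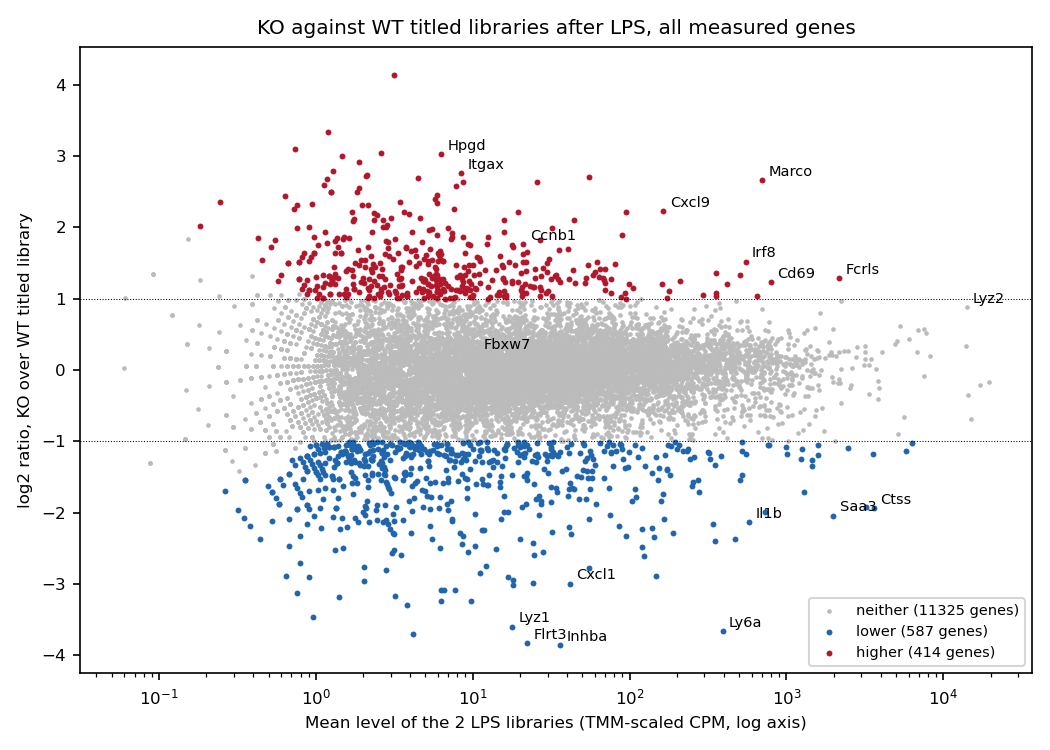
Log2 ratio of the KO-titled over the WT-titled LPS library (y axis) against the mean level of the 2 libraries in TMM-scaled CPM (x axis, log scale), 1 point per gene. Red points are the 414 genes called higher, blue the 587 called lower and grey the rest, dotted lines mark 2-fold, and Inhba, Flrt3, Ly6a and Lyz1 lie lowest among the labelled genes while Hpgd, Itgax and Marco lie highest.

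The targeted gene did not separate the titles. Fbxw7 (ENSMUSG00000028086, chromosome 3, 84815268 to 84979198, mm10) had 170 counts (9.90 CPM) in the WT-titled and 191 counts (11.7 CPM) in the KO-titled LPS library, a ratio of 1.18 (0.955 to 1.46). A count summed over the whole gene cannot show whether the floxed exons were removed. No other SCF component was called either: 0 of 12 measured members of that list were higher or lower, with a median log2 ratio of 0.05. With 8.12% of all genes called, 0 calls in a list of 12 do not set it apart. The 2 lysozyme genes gave a larger contrast. Lyz2, the gene that carries the cre insertion and encodes the macrophage lysozyme, was at 9917 CPM with the WT title and 18238 CPM with the KO title, 1.84-fold higher (1.83 to 1.85) and under the 2-fold rule. Lyz1, its neighbour on chromosome 10, was at 33.1 CPM with the WT title and 2.63 CPM with the KO title, 12.6-fold lower (9.23 to 17.6). The longest open reading frames of the 2 genes were 447 and 492 bases long and matched at 425 bases. This was 86.4% of an alignment that counted the unpaired bases of the longer frame as differences. Identity over the paired bases was thus higher, so reads may have been shared between the 2 genes and both values are uncertain. Of 40 measured genes within 5 Mb of Lyz2, 0 were called higher and 2 lower, or 5% against 8.12% of all genes. Among 81 genes within 5 Mb of Fbxw7, 8 were called higher and 2 lower (12.3%). The neighbours Fcrls, Cd5l and Fcrl1, described below, are among those higher. Within 10 Mb, 8 of 127 were called higher and 4 lower (9.45%), nearer the share of all genes.

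The cytokines split by gene. Inhba, Csf3, Il1b and Il10 were called lower in the KO-titled library, while Tnf, Il6, Il12b and Ifnb1 were not called. Of 22 measured inflammatory cytokines 8 were called lower and 0 higher, against 4.76 and 3.36% of all genes. Their median log2 ratio was −0.25, against −0.02 over all genes. Inhba (ENSMUSG00000041324, chromosome 13), the subunit of activin A, had 1167 counts (68.0 CPM) with the WT title and 75 counts (4.59 CPM) with the KO title, 14.8-fold lower (11.7 to 19.0). Csf3, the granulocyte colony-stimulating factor, was at 7.80 and 0.490 CPM, 15.9-fold lower (7.86 to 37.7) on only 8 counts with the KO title. Il1b, the pyrogenic cytokine interleukin 1 beta, was at 941 and 215 CPM, 4.37-fold lower (4.22 to 4.54). All 3 genes stood higher in each LPS library than in either untreated library.

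Il10, Il1rn and the TNF family ligand Tnfsf9 were in the same group. Il10, the anti-inflammatory cytokine, was at 33.1 CPM with the WT title and 11.3 CPM with the KO title, 2.94-fold lower (2.48 to 3.49). Tnfsf9, the 4-1BB ligand, was at 62.4 and 20.7 CPM, 3.01-fold lower (2.66 to 3.41). Il1rn, the interleukin 1 receptor antagonist, was at 1028 and 498 CPM, 2.06-fold lower (2.01 to 2.12). Il19 and Il7 were the other members called lower. Against these, Tnf was at 770.4 and 857 CPM (ratio 1.11, 1.09 to 1.14), and Il6 at 160.4 and 136 CPM, 1.18-fold apart (1.11 to 1.25). Il12b, the p40 chain of interleukins 12 and 23, was at 34.5 and 37.2 CPM, and Ifnb1, interferon beta, at 52.9 and 76.9 CPM. Levels of these 4 genes thus differed by under 1.5-fold between the libraries.

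Several growth factors were lower as well, and so were Ptgs2 and Ptges, while another prostaglandin enzyme, Hpgd, was higher. A list of growth factors, mostly of the TGF-beta, EGF, PDGF and VEGF families, had 15 measured members. Of these 7 were called lower and 0 higher, against 4.76 and 3.36% of all genes, with a median log2 ratio of −0.62. The list also holds Spp1 (osteopontin), a secreted matrix protein of none of these families, and without it 6 of 14 were called lower, with a median of −0.60, a step chosen after seeing the data. Inhba is counted in this list too. Tgfb3, a TGF-beta isoform, was at 6.11 CPM with the WT title and 0.918 CPM with the KO title, 6.66-fold lower (3.86 to 12.3). Vegfa, the angiogenic factor, was at 72.3 and 25.4 CPM, 2.85-fold lower (2.55 to 3.19). Spp1 was at 5073 and 1343 CPM, 3.78-fold lower (3.72 to 3.84), and was among the 6 genes called lower with the highest CPM. Gdf15, Gdf3 and Vegfc completed the group. Of the enzymes of prostaglandin E2 synthesis, Ptgs2 (cyclooxygenase 2) was at 270.2 and 63.4 CPM, 4.26-fold lower (3.98 to 4.56). Ptges (prostaglandin E synthase) was at 70.5 and 14.3 CPM, 4.94-fold lower (4.29 to 5.71). Hpgd, the dehydrogenase that inactivates prostaglandins, went the other way: 1.28 CPM with the WT title and 11.3 CPM with the KO title, 8.84-fold higher (5.67 to 14.4), the largest ratio of the 14 highest genes named by the rule.

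**Figure D2:**
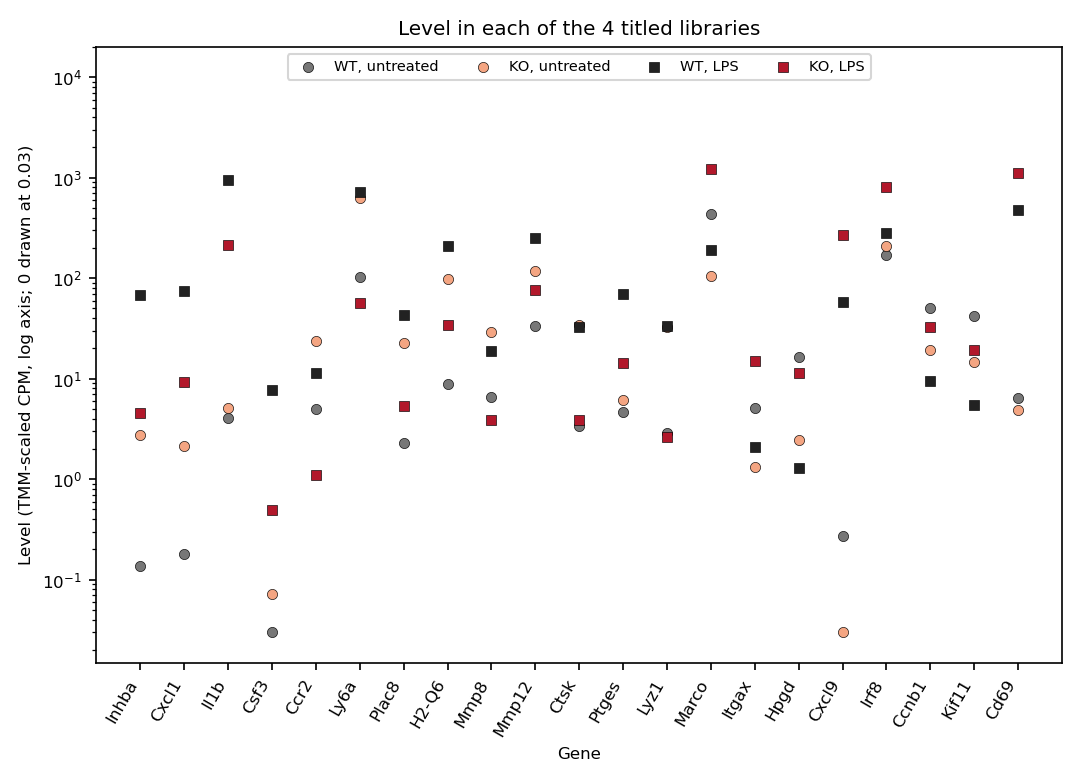
Level of 21 genes in each of the 4 titled libraries (TMM-scaled CPM, log axis), circles untreated and squares LPS, with a value of 0 drawn at 0.03. From Inhba to Lyz1 the dark square (WT title, LPS) lies above the red one (KO title, LPS), as for Il1b at 941 and 215 CPM, and from Marco to Cd69 the red square lies above, as for Marco at 190 and 1211 CPM.

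The CXC chemokines split by gene, with Cxcl1, Cxcl2 and Cxcl3 lower with the KO title and Cxcl9 and Pf4 higher. Of 10 measured CXC chemokines 3 were called lower and 2 higher, against 4.76 and 3.36% of all genes. Cxcl1, a ligand of CXCR2, was at 74.5 CPM with the WT title and 9.24 CPM with the KO title, 8.06-fold lower (6.81 to 9.61). Cxcl3 was at 21.2 and 3.06 CPM, 6.93-fold lower (5.14 to 9.51), and Cxcl2 at 161.9 and 45.1 CPM, 3.59-fold lower (3.31 to 3.90). Cxcl9, the interferon gamma-inducible ligand of CXCR3, was at 57.9 and 271 CPM, 4.68-fold higher (4.37 to 5.02). Pf4 (platelet factor 4) was at 59.5 and 126 CPM, 2.12-fold higher (1.97 to 2.29). Ppbp, a CXCR2 ligand of the same cluster, was not called, on 43 and 81 counts (log2 ratio 0.95). Cxcl10, which shares the receptor of Cxcl9, was at 4348 and 5797 CPM and not called. The 3 lower genes are neighbours on chromosome 5 (90786103 to 90905938, mm10).

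The promoters of these chemokine genes are shown because the neighbours Cxcl1 and Cxcl3 were lower together while Cxcl9 was higher. The 250 bases before the RefSeq start (GRCm38.p6) were searched on both strands for GGGANNTTC, a core of NF-kB sites, and for GAAANNGAA, a core of interferon-response elements. Capitals mark the matches. Cxcl1 is at chr5:90890995-90891244 (plus strand), Cxcl3 at chr5:90785851-90786100 (plus strand) and Cxcl9 at chr5:92328080-92328329 (minus strand).
Cxcl1: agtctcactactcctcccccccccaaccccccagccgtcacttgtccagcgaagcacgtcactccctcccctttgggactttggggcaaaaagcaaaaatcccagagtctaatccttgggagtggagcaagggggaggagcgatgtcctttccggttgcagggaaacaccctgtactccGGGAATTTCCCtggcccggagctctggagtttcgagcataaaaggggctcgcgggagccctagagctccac
Cxcl3: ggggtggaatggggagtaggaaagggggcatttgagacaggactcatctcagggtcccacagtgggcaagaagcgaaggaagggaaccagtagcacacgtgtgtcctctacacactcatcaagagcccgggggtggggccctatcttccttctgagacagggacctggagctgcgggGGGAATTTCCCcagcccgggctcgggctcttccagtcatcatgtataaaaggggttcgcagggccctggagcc
Cxcl9: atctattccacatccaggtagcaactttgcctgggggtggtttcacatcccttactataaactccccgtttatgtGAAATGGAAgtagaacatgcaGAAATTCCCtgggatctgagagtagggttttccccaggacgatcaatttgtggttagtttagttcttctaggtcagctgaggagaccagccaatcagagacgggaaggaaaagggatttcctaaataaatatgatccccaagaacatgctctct
The Cxcl1 and Cxcl3 windows each held 2 overlapping matches to GGGANNTTC and the same run of capitals. The Cxcl9 window held 1 match to GGGANNTTC and 1 to GAAANNGAA, which do not overlap. Of the promoters of measured chemokine genes, 5 of 15 held GGGANNTTC (33.3%), against 3.23% of all 32851 RefSeq promoters of this length and 2.58% of those of genes called lower. The Inhba window, searched for GGGANNTTC and for TGANTCA, an AP-1 site held by 6.75% of all RefSeq promoters, had 0 matches. A match describes letters in the window and does not show binding.

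Among CC chemokines 3 of 10 measured genes were called lower and 0 higher, against 4.76 and 3.36% of all genes. Ccl8, a monocyte chemoattractant, was at 239 CPM with the WT title and 47.1 CPM with the KO title, 5.08-fold lower (4.70 to 5.49). Ccl9 was at 1393 and 615 CPM (2.27-fold lower, 2.21 to 2.32), and Ccl7 at 695 and 344 CPM (2.02-fold lower). Ccl7 sat at the edge of the 2-fold rule and was not called under the 3 other scalings (log2 ratio −0.981 with DESeq2 size factors). Its neighbour Ccl2, the main ligand of CCR2, was at 436 and 312 CPM and not called. Ccl3, Ccl4 and Ccl5 had log2 ratios of 0.09, 0.22 and 0.09.

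A group of receptors for these ligands was lower too. Of 13 measured chemokine and chemoattractant receptors 4 were called lower and 0 higher, against 4.76 and 3.36% of all genes. Among those lower were Ccr1, Ccr3 and Ccr2, which are neighbours on chromosome 9. Ccr2, the receptor that brings monocytes out of the marrow, had 196 counts (11.4 CPM) with the WT title and 18 counts (1.10 CPM) with the KO title, 10.4-fold lower (6.39 to 17.9). Ccr1 was at 19.7 and 2.63 CPM, 7.50-fold lower (5.45 to 10.6). Ccr3, the eotaxin receptor, was at 33.5 and 6.42 CPM, 5.22-fold lower (4.23 to 6.49). Other receptors of the list, such as C5ar1 (−0.28), Cxcr4 (0.23) and Fpr1 (0.04), had log2 ratios near 0.

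Runs of neighbouring genes called the same way occurred 14 times with at least 3 measured genes in a row, and 4 of their gene families, chosen after their values were seen, are plotted by distance. In the matrix metalloproteinase cluster on chromosome 9, Mmp12, Mmp3, Mmp10 and Mmp8 were called lower, while Mmp13 beside them was not (log2 ratio −0.29). Mmp8, the neutrophil collagenase, was at 19.0 CPM with the WT title and 3.92 CPM with the KO title, 4.85-fold lower (3.70 to 6.44). Mmp12, the macrophage elastase, was at 252 and 75.5 CPM, 3.33-fold lower (3.13 to 3.56). Over 14 measured matrix metalloproteinases and inhibitors, 7 were called lower and 0 higher, against 4.76 and 3.36% of all genes. Their median log2 ratio was −0.88, the lowest of the plotted lists. Adam8, a membrane protease, and Timp2, an inhibitor of these enzymes, were also among the 7, as was Adamts4.

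In the Ly6 window on chromosome 15, 6 of 9 measured genes were called lower, against 4.76% of all genes. Ly6a (Sca-1), a GPI-anchored surface protein induced by interferon, was at 728 CPM with the WT title and 57.3 CPM with the KO title, 12.7-fold lower (11.9 to 13.6). Ly6e was at 1995 and 612 CPM and 3.26-fold lower (3.19 to 3.34). Ly6c2, a marker of inflammatory monocytes, was at 3.61 and 0.428 CPM, 8.43-fold lower (3.86 to 21.8) on 62 and 7 counts. Ly6 genes are close copies of one another, so their separate values are uncertain.

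The same holds for the class I genes on chromosome 17, where H2-Q4, H2-Q5, H2-Q6 and H2-Q7 (35379617 to 35443773) were all called lower. H2-Q6 was at 212 CPM with the WT title and 34.6 CPM with the KO title, 6.12-fold lower (5.60 to 6.70), and H2-Q7 4.72-fold lower (4.34 to 5.13). Of 17 measured class I presentation genes 5 were called lower and 0 higher, against 4.76 and 3.36% of all genes, and the median log2 ratio was −0.39. The classical genes H2-K1 (4918 and 2181 CPM, 2.25-fold lower, 2.23 to 2.28) and H2-D1 (8398 and 4149 CPM, 2.02-fold lower, 2.01 to 2.04) were in the group, but H2-D1 sat at the edge of the 2-fold rule and was not called under the 3 other scalings (log2 ratio −0.985 with DESeq2 size factors). Peptide transporters and proteasome subunits were not, with log2 ratios of 0.10 for Tap1 and −0.06 for Psmb8. Tnf and Ltb lie in the same region of chromosome 17. Ltb, the lymphotoxin beta gene and named after its values were seen, was at 8.15 and 27.7 CPM, 3.40-fold higher (2.81 to 4.14).

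**Figure D3:**
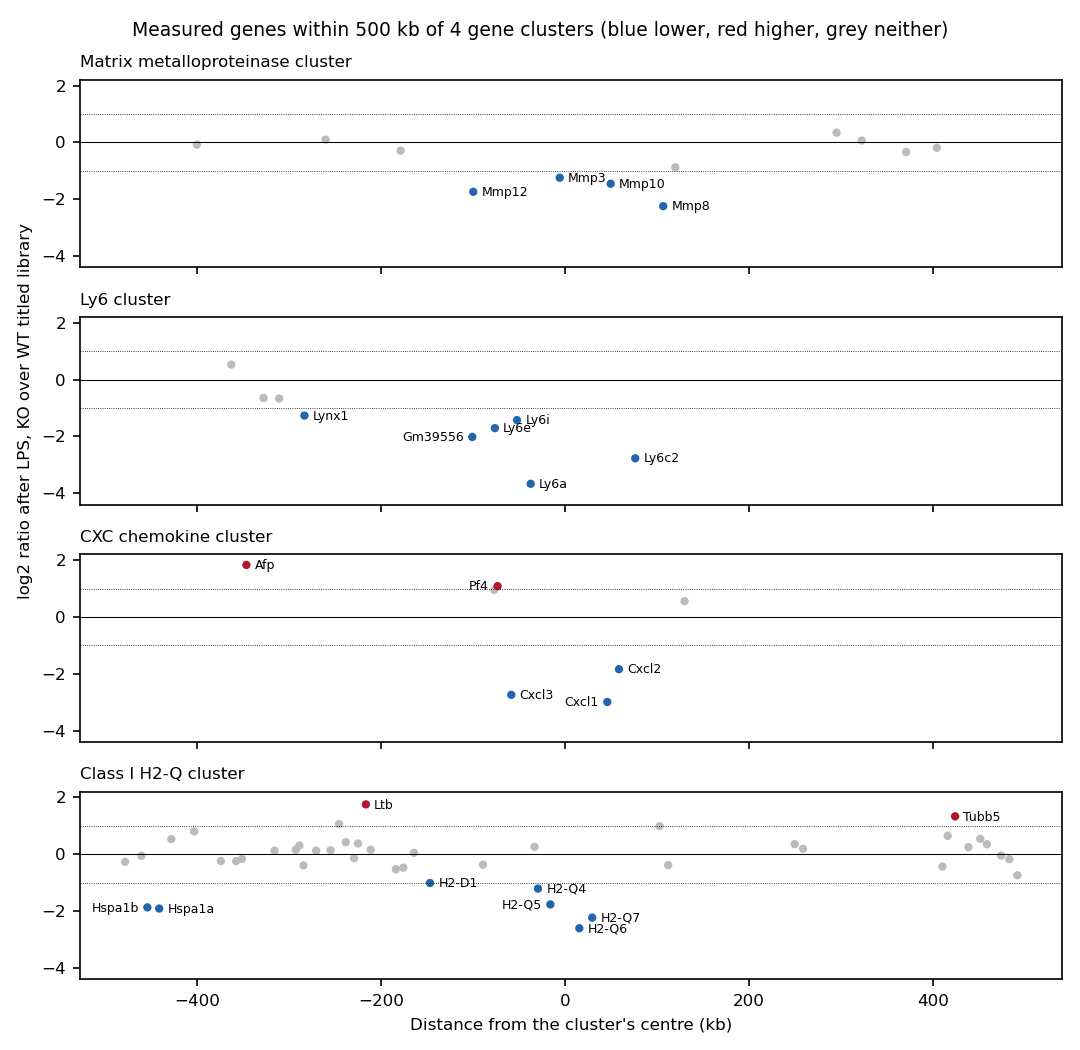
Log2 ratio after LPS (KO-titled over WT-titled library, y axis) of every measured gene within 500 kb of the centre of 4 gene clusters, against its distance from that centre in kb. Blue genes were called lower (4 of 12 in the Mmp window, 6 of 9 in the Ly6 window, 3 of 7 in the Cxcl window and 7 of 44 in the H2-Q window), red higher, and most grey neighbours lie near 0.

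Monocyte and surface-receptor genes differed in both directions. Of 12 measured monocyte and immature myeloid genes 5 were called lower and 2 higher, against 4.76 and 3.36% of all genes. Their median log2 ratio was −0.64. Plac8, a cysteine-rich protein of myeloid cells, was at 42.9 CPM with the WT title and 5.32 CPM with the KO title, 8.05-fold lower (6.44 to 10.2). Ms4a4c was 4.89-fold lower (4.58 to 5.24) at 312 and 63.8 CPM, but belongs to a family of close copies and is uncertain. Ccr2, Ly6c2 and Cd34 (8 and 1 counts) were the other 3. Against the majority, Fn1 (fibronectin) was at 2.91 and 9.54 CPM, 3.28-fold higher. F13a1, the coagulation factor XIII A chain, was at 9.08 and 22.1 CPM, 2.44-fold higher (2.02 to 2.96).

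Scavenger receptors held calls in both directions, and Marco was the most abundant of those higher. Of 22 measured scavenger and C-type lectin receptors 5 were called higher, 2 lower and 15 neither, with a median log2 ratio of 0.05. The shares of all genes were 3.36% higher and 4.76% lower. Marco (ENSMUSG00000026390, chromosome 1), a collagen-domain scavenger receptor for bacteria, had 3268 counts (190 CPM) with the WT title and 19798 counts (1211 CPM) with the KO title, 6.37-fold higher (6.13 to 6.61). Tyro3 (a receptor of the TAM family), Clec10a, Clec4n and Timd4 were called higher at levels of 1.05 to 118 CPM. Clec4e (Mincle), which binds mycobacterial glycolipid, was at 1753 and 736 CPM, 2.38-fold lower (2.33 to 2.43), and Colec12 2.54-fold lower (2.37 to 2.72). Other receptor families had fewer calls upward. Of 18 Fc, TREM and CD300 receptors 3 were called lower (Cd300lf, Trem1 and Cd300lb) and 1 higher (Treml4, on 7 and 25 counts). Trem1, which amplifies TLR signals, was at 11.1 and 2.75 CPM, 4.04-fold lower (2.91 to 5.72).

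Most macrophage identity genes lay within 2-fold between the libraries, though more were below than above 0. Of 19 measured members 1 was called higher, 2 lower and 16 neither, against 8.12% of all genes called, with a median log2 ratio of −0.32 and 6 of 19 above 0. Adgre1 (F4/80), Csf1r, Itgam and Spi1 had log2 ratios of 0.26, −0.37, −0.12 and −0.03, so these defining markers of macrophages were present in both. Siglec1 (CD169), the sialoadhesin of tissue macrophages, was at 784 CPM with the WT title and 152 CPM with the KO title, 5.15-fold lower (4.93 to 5.38). Irf8, a transcription factor of the monocyte and dendritic lineages, was at 285 and 818 CPM, 2.87-fold higher (2.78 to 2.97). Itgax (CD11c) was at 2.10 and 14.9 CPM, 7.09-fold higher (4.98 to 10.4).

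The core of the LPS signalling pathway was near level, with a median log2 ratio of −0.008 over the TLR4 signalling components. Of 23 measured TLR4 signalling components 1 was called lower and 0 higher: Cd14, the co-receptor, at 3366 CPM with the WT title and 1575 CPM with the KO title, 2.14-fold lower (2.11 to 2.17). Tlr4, Ly96 and Myd88 had log2 ratios of 0.27, 0.22 and 0.08. Among 19 NF-kB subunits and feedback inhibitors only Traf1, an adaptor of TNF receptors, was called (2.38-fold lower, 2.27 to 2.50), with Nfkbia at −0.26 and Tnfaip3 at −0.24. Interferon-stimulated genes gave 2 of 42 called higher, Irf8 and Cxcl9, and 0 lower. Since 4.76% of all genes were called lower and 3.36% higher, calls this few do not set these lists apart. Isg15 was at 1423 and 1727 CPM, and Ifit1 at 4191 and 6412 CPM, neither of them called. Of the promoters of this list 19 of 36 (52.8%) held GAAANNGAA, against 7.13% of all RefSeq promoters.

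Immediate early genes had their own split. Of 19 measured members 6 were called lower and 0 higher, against 4.76 and 3.36% of all genes. Those lower were Fosb, Fosl2, Egr2 and the orphan nuclear receptors Nr4a1, Nr4a2 and Nr4a3. Fosb, an AP-1 subunit, was at 19.5 CPM with the WT title and 4.04 CPM with the KO title, 4.83-fold lower (3.70 to 6.39). Nr4a1 was at 24.5 and 7.10 CPM, 3.45-fold lower (2.81 to 4.28). Fos, Jun and Junb had log2 ratios of −0.05, −0.02 and 0.05. The MAP kinase phosphatases Dusp1, Dusp4 and Dusp14 were called lower among 17 SOCS and dual-specificity phosphatase genes (0 higher), Dusp1 at 460.3 and 194 CPM, 2.38-fold lower (2.28 to 2.48).

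Across 785 measured transcription factor genes 43 were called lower and 8 higher (6.5% in all, against 8.23% of other genes). Hmga2, an architectural chromatin protein, was at 11.8 CPM with the WT title and 1.29 CPM with the KO title, 9.20-fold lower (5.86 to 15.2). Of the 8 higher, chosen for naming after their values were seen, Mybl2 and Foxm1 drive mitotic genes and Spic marks red pulp macrophages. Spic was at 8.33 and 22.9 CPM, 2.75-fold higher (2.26 to 3.36).

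Antimicrobial effectors that were called were lower except Marco, which that list also holds. Of 17 measured members 7 were called lower, including Ptgs2 and Ptges, and 1 higher, against 4.76 and 3.36% of all genes. Saa3, an acute-phase protein made by macrophages, was at 3209 CPM with the WT title and 780 CPM with the KO title, 4.11-fold lower (4.04 to 4.19). Lcn2, the siderophore-binding lipocalin, was at 22.4 and 7.46 CPM, 3.00-fold lower (2.44 to 3.71). Nos2, the inducible nitric oxide synthase, was at 147 and 70.9 CPM, 2.07-fold lower (1.93 to 2.22). Arg2 and Arg1, both arginases, were the others, Arg1 on only 10 and 2 counts. Acod1, which makes itaconate, was at 7740 and 7311 CPM and not called.

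Of 11 measured alternative activation genes 1 was called higher (Clec10a) and 2 lower (Arg1 and Il10). Among 9 Notch pathway genes 1 was called lower (Jag1) and 0 higher. The shares of all genes were 4.76% lower and 3.36% higher. Jag1, a Notch ligand induced by NF-kB, was at 31.3 CPM with the WT title and 11.1 CPM with the KO title, 2.81-fold lower (2.37 to 3.34).

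Proteases of the lysosome included some of the genes called lower with the highest CPM. Ctss (cathepsin S), which processes the class II invariant chain, was at 5711 CPM with the WT title and 1488 CPM with the KO title, 3.84-fold lower (3.78 to 3.89). Ctsk, the collagen-degrading cathepsin of osteoclasts, was at 32.5 and 3.92 CPM, 8.30-fold lower (6.40 to 10.9). Ctsl was at 2041 and 849 CPM, 2.40-fold lower (2.36 to 2.45), and Gpnmb, a glycoprotein of lysosome-rich macrophages, 2.19-fold lower (2.17 to 2.21). The lysosome list as a whole had 3 of 25 called lower and 0 higher, against 4.76 and 3.36% of all genes, with a median log2 ratio of −0.27. On the authors' FPKM scale, which corrects for length, Ctss (4223 and 1125 FPKM) stood below Lyz2 (7567 and 14231 FPKM) and above Cd14 (2150.3 and 1029 FPKM) in both libraries.

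Class II and coagulation genes held calls mostly downward. Of 10 measured class II genes 2 were called lower, Ctss and the transactivator Ciita, the latter on 30 and 9 counts, and 0 higher, against 4.76% of all genes lower. H2-Aa, H2-Ab1, H2-Eb1 and Cd74 had log2 ratios of −0.79, −0.65, −0.59 and −0.52. Of 23 complement and coagulation genes 4 were called lower (Thbs1, Procr, Plat and Thbd) and 2 higher, F13a1 among them, with a median log2 ratio of −0.43. Thbs1, the matrix protein thrombospondin 1 that activates latent TGF-beta, was at 1168 CPM with the WT title and 295 CPM with the KO title, 3.96-fold lower (3.84 to 4.09). Among 11 costimulatory molecules Cd69 alone was called, higher, while Cd40, Cd80, Cd86 and Icam1 were not.

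Calls among sterol and glycolysis genes were all lower, and the 2 among antioxidant genes were higher. Of 28 measured sterol and fatty acid synthesis genes 6 were called lower and 0 higher, against 4.76% of all genes lower, with a median log2 ratio of −0.46. Cyp51, the lanosterol demethylase, was at 34.6 CPM with the WT title and 15.1 CPM with the KO title, 2.29-fold lower (1.97 to 2.67). Idi1, Sqle, Scd1 and Fads2 were among the others, while Insig1 had a log2 ratio of 0.50. Of 18 LXR target and lipid handling genes 2 were called lower, Pltp and Fabp4, and 0 higher, beside the same 4.76%. Of 29 glycolysis and hypoxia-response genes 4 were called lower (Slc16a3, Vegfa, Aldoc and Egln3) and 0 higher, beside that share too. The glycolysis list as a whole was not lower, with a median log2 ratio of 0.04 and 15 of 29 above 0. Slc16a3, the lactate exporter, was at 165 and 51.8 CPM, 3.18-fold lower (2.95 to 3.44). Of 20 NRF2 and antioxidant genes 2 were called higher, Gclm (2.45-fold, 2.23 to 2.68) and Cat (catalase, 2.37-fold, 2.25 to 2.49), against 3.36% of all genes higher. Among 22 chaperone genes Herpud1 was 3.27-fold higher (2.89 to 3.72), whereas Ddit3, Hspa1a and Hspa1b were called lower, the last pair being close copies whose values are uncertain.

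Several genes outside these lists had some of the largest ratios. Flrt3, a leucine-rich adhesion and guidance protein, was at 41.7 CPM with the WT title and 2.81 CPM with the KO title, 14.8-fold lower (11.0 to 20.4). Dio2, which activates thyroid hormone, was at 32.3 and 4.10 CPM, 7.87-fold lower (6.10 to 10.3). Zfp462, a zinc finger protein, was at 17.8 and 1.77 CPM, 10.0-fold lower (6.85 to 15.3). Itgb7, an integrin chain of gut-homing leukocytes, was at 13.8 and 1.53 CPM, 9.02-fold lower (5.96 to 14.2). Best1 (an anion channel) and Napsa (an aspartic protease) were 9.23-fold and 7.70-fold lower.

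Among the genes of largest ratio upward, Calb2 (calretinin, a calcium-binding protein) was at 33.7 CPM with the WT title and 157 CPM with the KO title, 4.67-fold higher (4.26 to 5.12). Enpp2 (autotaxin, which makes lysophosphatidic acid) was at 6.81 and 32.1 CPM, 4.71-fold higher (3.85 to 5.81). Serpina3g and Serpina3f, serine protease inhibitors, were 4.31-fold and 4.02-fold higher, but are close copies of each other and uncertain. Actin-binding and adhesion genes were among the rest: Coro2b was 7.08-fold, Avil (advillin) 6.49-fold and Adam23 6.33-fold higher, with Nrxn2 (a neurexin) at 6.25-fold and the lectin gene Cd209f at 4.36-fold. At high CPM, Fcrls, an Fc receptor-like scavenger of macrophages, was at 1260 and 3087 CPM, 2.45-fold higher (2.41 to 2.49). Its neighbour Cd5l, the macrophage-secreted protein AIM, formed a run with it and Fcrl1 on chromosome 3 (87250758 to 87402934) and was 2.56-fold higher (2.46 to 2.67). Tubb5 (a beta-tubulin) was at 286 and 721 CPM, 2.52-fold higher (2.43 to 2.60), and Zyx (zyxin, a focal adhesion protein) at 427 and 875 CPM, 2.05-fold higher (1.99 to 2.11).

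Mitotic genes were higher in the KO-titled LPS library as a group. Of 34 measured mitosis genes 26 were called higher and 0 lower, with log2 ratios above 0 for 34 of 34 and a median of 1.29, against 3.36% of all genes higher. Kif2c, a microtubule-depolymerising kinesin, was at 2.15 CPM with the WT title and 8.81 CPM with the KO title, 4.09-fold higher (2.83 to 6.04). Ccnb1 (cyclin B1) was at 9.49 and 32.7 CPM, 3.44-fold higher (2.88 to 4.13). Kif11, the spindle kinesin Eg5, was at 5.53 and 19.2 CPM, 3.46-fold higher (2.74 to 4.40). Hmmr, a spindle assembly factor, was at 4.13 and 14.4 CPM, 3.49-fold higher (2.67 to 4.62), and Mybl2 3.77-fold higher (2.77 to 5.21). Both LPS libraries lay below the untreated WT-titled library in all 5 genes except Mybl2, which stood at 8.30 CPM in that library and 11.6 CPM in the KO-titled LPS library. The untreated KO-titled library was lower than the KO-titled LPS library in Ccnb1 (19.3 CPM), Kif11 (14.7 CPM), Hmmr (7.015 CPM) and Mybl2 (5.75 CPM).

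Genes of DNA replication followed with smaller ratios. Of 42 measured members 9 were called higher and 0 lower, against 3.36 and 4.76% of all genes, and the median log2 ratio was 0.64. Rrm2, the small subunit of ribonucleotide reductase, was at 11.2 CPM with the WT title and 32.5 CPM with the KO title, 2.89-fold higher (2.45 to 3.43). Uhrf1, which recruits DNA methyltransferase to new strands, was at 13.6 and 36.5 CPM, 2.69-fold higher (2.31 to 3.14). The helicase genes Mcm2 to Mcm7 were not called, at log2 ratios of 0.38 to 0.91. Ccne2 (cyclin E2) is also on the list of reported FBXW7 substrates and was at 3.90 and 7.95 CPM, 2.04-fold higher (1.51 to 2.78). In that list of 25 measured transcripts it was the 1 called higher, and Nr1d1, on 22 and 9 counts, the 1 called lower. This is near the share over all genes, 3.36% higher and 4.76% lower. Myc, Jun and Notch1 had log2 ratios of −0.28, −0.02 and 0.14. Of the cyclin D, CDK and CDK inhibitor genes 1 of 20 was called higher, also near that share: the inhibitor Cdkn2c (2.67-fold, 2.07 to 3.46). Polycomb genes gave 0 of 15 called, against 8.12% of all genes, with Ezh2 at 11.4 and 17.9 CPM (1.57-fold, 1.30 to 1.89).

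The promoters of 4 mitotic genes described above are shown because most of this list moved together. Capitals mark CCAAT, bound by NF-Y, or TTTGAA, a core of the cell cycle homology region, on either strand (ATTGG and TTCAAA on the other). Ccnb1 is at chr13:100786487-100786736 (minus strand), Kif2c at chr4:117178773-117179022 (minus strand), Hmmr at chr11:40733438-40733687 (minus strand) and Kif11 at chr19:37376132-37376381 (plus strand), each the 250 bases before the RefSeq start in GRCm38.p6.
Ccnb1: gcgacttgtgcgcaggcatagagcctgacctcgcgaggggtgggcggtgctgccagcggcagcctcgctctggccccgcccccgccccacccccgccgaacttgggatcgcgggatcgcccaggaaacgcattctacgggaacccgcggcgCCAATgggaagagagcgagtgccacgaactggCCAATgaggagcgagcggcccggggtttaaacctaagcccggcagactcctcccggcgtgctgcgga
Kif2c: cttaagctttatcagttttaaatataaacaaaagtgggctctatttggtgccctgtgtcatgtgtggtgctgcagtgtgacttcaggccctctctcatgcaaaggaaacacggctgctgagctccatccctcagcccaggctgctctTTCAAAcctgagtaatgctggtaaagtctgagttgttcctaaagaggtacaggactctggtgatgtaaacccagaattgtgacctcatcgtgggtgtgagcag
Hmmr: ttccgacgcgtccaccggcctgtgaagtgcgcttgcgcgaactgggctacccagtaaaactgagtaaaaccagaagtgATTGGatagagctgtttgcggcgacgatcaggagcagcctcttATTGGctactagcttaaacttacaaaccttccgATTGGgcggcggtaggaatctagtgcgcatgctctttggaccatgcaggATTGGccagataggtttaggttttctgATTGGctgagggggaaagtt
Kif11: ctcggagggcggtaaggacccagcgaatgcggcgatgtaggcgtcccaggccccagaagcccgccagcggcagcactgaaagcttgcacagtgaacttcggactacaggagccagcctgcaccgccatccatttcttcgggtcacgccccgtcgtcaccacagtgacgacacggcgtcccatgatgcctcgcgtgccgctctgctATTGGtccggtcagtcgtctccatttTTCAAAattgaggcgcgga
The Ccnb1 window held 2 matches to CCAAT, the Hmmr window 5, and the Kif11 window 1 to CCAAT and 1 to TTTGAA. The Kif2c window held 0 matches to CCAAT and 1 to TTTGAA. Of 30 promoters matched to the mitosis list, 22 (73.3%) held CCAAT, against 33.8% of all RefSeq promoters and 35.4% of those of measured genes. For the replication list the share was 57.9%. TTTGAA was in 9 of the 30 (30%), against 16% of all RefSeq promoters and 10.7% of those of measured genes. Among all called genes CCAAT was in 43.5% of promoters of those higher and 32.5% of those lower. A window with no match says only that these letters are not in it.

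**Figure D4:**
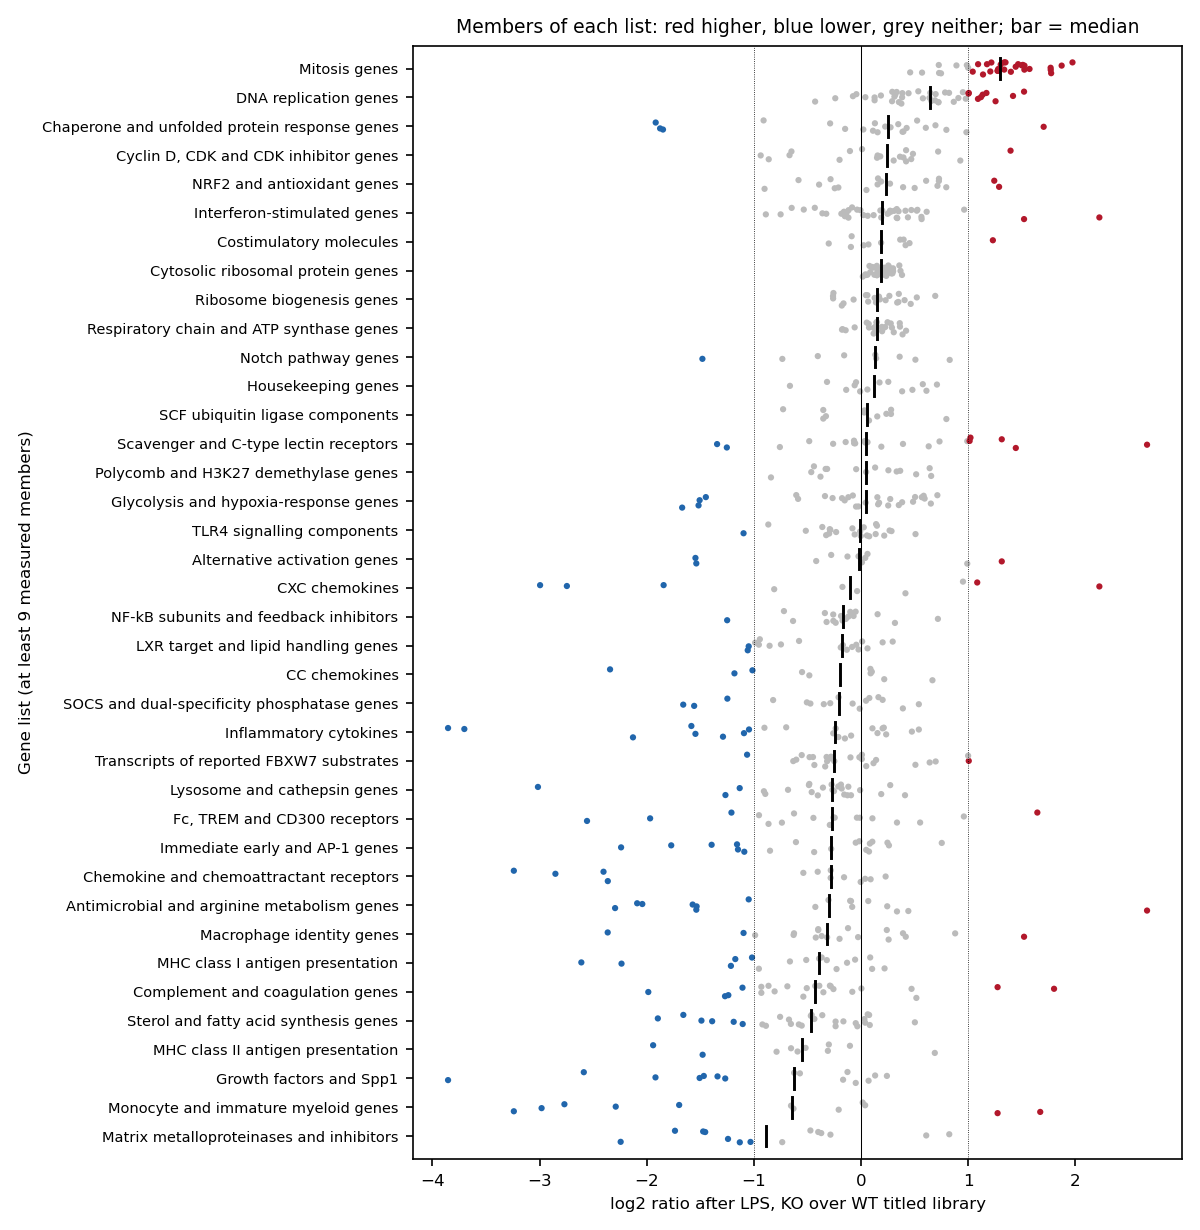
Log2 ratio after LPS (KO-titled over WT-titled library, x axis) of each measured member of the gene lists with at least 9 measured members, ordered by median (black bar), with red called higher, blue lower and grey neither. Mitosis genes have the highest median (1.29) and matrix metalloproteinases and inhibitors the lowest (−0.88), while ribosomal proteins, ribosome biogenesis, respiratory chain and housekeeping genes have no call.

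Constitutive genes had no call, but many lay above 0. Log2 ratios were above 0 for 38 of 38 cytosolic ribosomal proteins and 22 of 26 respiratory chain genes. The same held for 16 of 22 ribosome biogenesis and 8 of 14 housekeeping genes. Of gene families grouped by description after their values were seen, kinesins had 8 called higher and 1 lower of 33, and tubulins 4 higher and 0 lower of 17. Guanylate binding proteins had 0 called of 8. The shares of all genes were 3.36% higher and 4.76% lower. None of 38 cytosolic ribosomal proteins, 22 ribosome biogenesis genes, 26 respiratory chain genes or 14 housekeeping genes was called by the size rule, with medians from 0.12 to 0.19, and none of 76 mitochondrial ribosomal proteins. Actb was at 6058 and 9037 CPM and not called. Gapdh had only 63 and 58 counts; processed copies of this gene are many, so its value is uncertain. By biotype, lincRNA genes were called most often, 11 higher and 28 lower of 185 (21.1%), and antisense genes in 14.9%, without a stated strand setting for the counting.

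Markers of other cell types were scarce in both libraries, and some moved with the title. Of 13 neutrophil markers 4 were measured and 3 called lower (S100a8, Mmp8, Lcn2), the summed level of the list was 262 CPM with the WT title and 177 CPM with the KO title, and the defining genes Ly6g and Retnlg were at 0. Of 10 B cell and plasma cell markers 2 were measured and both called higher, Ighm at 37.6 and 140 CPM and Cd79b at 9.72 and 27.4 CPM, with the summed level at 48.4 and 169.8 CPM, while Pax5 and Vpreb3 were at 0. For T and NK cells 3 of 14 were measured and Il7r was called lower (120.2 and 29.4 CPM), the sums being 176 and 92.0 CPM, with Cd3e, Cd8a, Trac and Trbc2 at 0. For dendritic cells 3 of 11 were measured, 1 was called higher (Itgax), the sums were 21.5 and 34.9 CPM, and Cd209a and Siglech were at 0. Erythroid and megakaryocyte markers (3 of 12 measured, Pf4 called higher) summed to 63.8 and 133 CPM, with Hba-a2, Hbb-bs, Hbb-bt and Slc4a1 at 0. Mast cell, basophil and eosinophil markers (3 of 12 measured, Prss34 called lower on 45 and 3 counts) summed to 12.9 and 8.32 CPM, with Mcpt4, Tpsb2, Epx and Cma1 at 0. Osteoclast markers (6 of 10 measured, Ctsk and Itgb3 called lower) summed to 156 and 127 CPM, with Oscar at 0. Fibroblast markers (1 of 12 measured, 0 called) summed to 5.53 and 10.9 CPM. The part of these cells in the results above was not tested. Of 5 measured sex-linked genes 0 were called, and Xist (419 and 352 CPM) and Ddx3y (33.6 and 30.8 CPM) were both present in each library.

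The untreated pair of the same titles had the opposite sign of log2 ratio for most genes called after LPS, and the opposite call for a minority. It shares no library with the LPS pair, though all 4 were scaled together. Untreated, 392 genes (3.18%) were called higher and 255 (2.07%) lower with the KO title, 647 (5.25%) in all. Of the 414 genes called higher after LPS, 147 (35.5%, or 57.6% of those called lower untreated) were called lower untreated and 2 higher, while 265 (64%) were called neither way. Of the 587 called lower after LPS, 220 (37.5%, or 56.1% of those called higher untreated) were called higher untreated and 4 lower, while 363 (61.8%) were called neither way. By sign alone, 89.6% of the genes called higher and 86.4% of those called lower had a log2 ratio of the opposite sign untreated, against 69.2% of all 12326 genes. Across the 12326 genes Pearson's r of the 2 log2 ratios was −0.61, a description over genes, which are not independent.

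Single genes show the pattern. Ly6a was at 103 CPM untreated with the WT title, 629 CPM untreated with the KO title, 728 CPM after LPS with the WT title and 57.3 CPM after LPS with the KO title. Ctsk, in the same order, was at 3.36, 34.3, 32.5 and 3.92 CPM. In these genes, as in Lyz1 (2.86, 32.9, 33.1 and 2.63 CPM), the untreated KO-titled library stood near the WT-titled LPS library, and the untreated WT-titled near the KO-titled LPS library. Marco had the reverse order, at 434, 106, 190 and 1211 CPM. Mitosis genes were called higher in 0 and lower in 27 of 34 untreated, with a median log2 ratio of −1.30. Whether the order reflects the titles, the tags or the cultures cannot be told apart with 1 library per group.

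Of the 1001 genes called after LPS, 634 (63.3%) had no opposite call in the untreated pair. Il1b was at 4.04 and 5.13 CPM untreated, Ptges at 4.67 and 6.07 CPM, and Cd69, an early activation receptor, at 6.44 and 4.92 CPM, all within 2-fold. Each of these small untreated differences ran in the direction opposite to the gene's call after LPS. After LPS Cd69 was at 478 and 1122 CPM, 2.35-fold higher with the KO title (2.29 to 2.41). Irf8 was at 171 and 209.9 CPM untreated, the same direction as after LPS. For Il10, Tnfsf9, Jag1 and Cd34 the untreated log2 ratio was below 0 as it was after LPS.

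**Figure D5:**
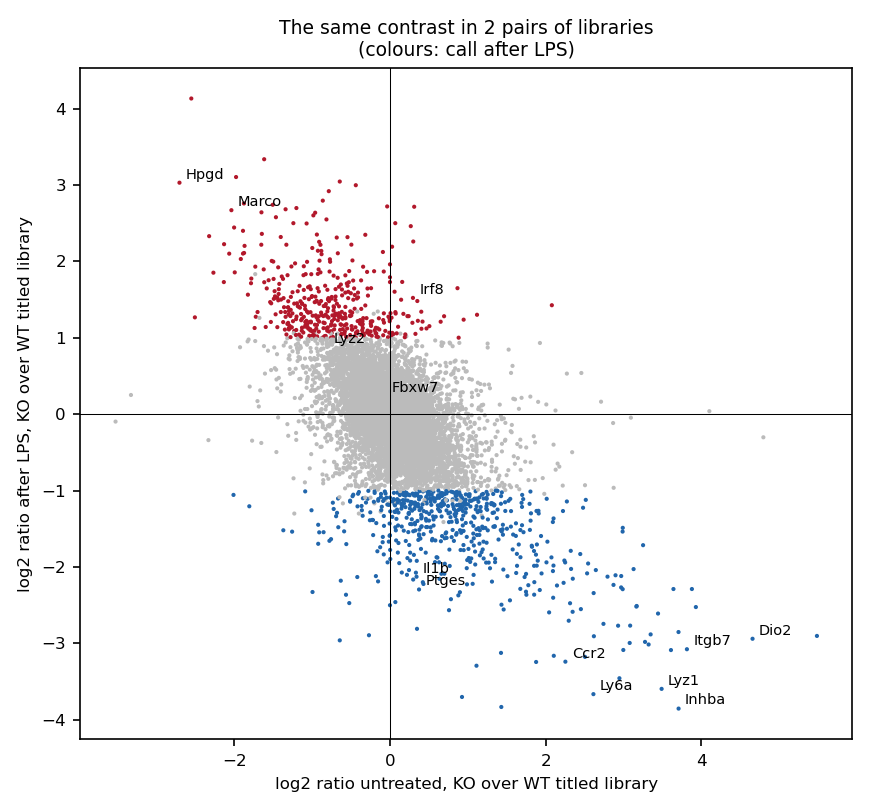
Log2 ratio of the KO-titled over the WT-titled library after LPS (y axis) against the same ratio untreated (x axis), 1 point per gene, coloured by the call after LPS (red higher, blue lower, grey neither). Points run from upper left (Hpgd, Marco) to lower right (Inhba, Lyz1, Dio2), with r = −0.61 across 12326 genes, while Il1b and Ptges lie low with untreated ratios near 0.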

How the data were processed

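Polyadenylated RNA of 4 libraries was sequenced as paired reads. Reads were aligned with HISAT2 2.0.5 to mm10, as the submitters' processing notes list. How reads were counted, with which strand setting, and which statistical test the authors used is not given in the sources read here. The deposited table holds a read count per gene and library, the authors' FPKM (per the file headers), and a log2 fold, p-value and adjusted p-value per comparison, per the file headers. A further 8 per-sample columns of that table stayed unused.

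Counts were scaled by TMM (edgeR 4.0.16) over the 4 libraries (factors 1.25, 1.16, 0.820 and 0.840 for WT, KO, WT LPS and KO LPS), with 3 counts, the limit that a count of 0 allows, equal to 0.175 CPM (WT LPS) and 0.184 CPM (KO LPS). Log2 ratios used a prior count of 2, and genes were called by the size rule given in the results. That rule was tried only on simulated counts with counting error alone. The trial cannot show how the rule fares with spread between animals or cultures. The 47 gene lists and the members were chosen with earlier results of these data known. Gene families taken from the deposited descriptions were chosen after their values were seen. Named genes were the 14 highest and 14 lowest called protein-coding genes with a mean of at least 5 CPM and no provisional symbol, the 6 most abundant called genes each way, up to 5 called members per list with every member called against its list's majority, and Fbxw7, Lyz2, Lyz1, Ccl2, Ccl7, Il6, Tnf, Ezh2, Actb and Gapdh, and uncalled list members were given as examples. GENCODE M21 (GRCm38) held 54495 of 54532 identifiers, 53585 (98.3%) at the same position. RefSeq promoters (GRCm38.p6) were matched by symbol for 9165 of 12325 measured symbols, and 14 of 20 chemokine, 29 of 34 mitosis, 32 of 42 replication and 30 of 42 interferon-stimulated genes. Alternatives were DESeq2 1.42.0 size factors, unscaled totals, TMM of the LPS libraries alone, other level filters, fold rules and prior counts, FPKM with a pseudocount of 1, and protein-coding genes only. Software was Biopython 1.88, matplotlib 3.10.9, NumPy 2.4.6, pandas 2.3.3, Python 3.11.15, SciPy 1.17.1 and R 4.3.3.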

Additional observations from a re-analysis of the deposited data

Results flagged for a closer look

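Over all 1001 genes called after LPS, 367 had the opposite call in the untreated pair. Of the 131 named genes called after LPS, picked largely for the size of their ratios, 85 had the opposite call there. The difference of the 2 log2 ratios (LPS minus untreated, KO title over WT title) is given below for 28 of them, the genes named for the largest ratios (without Avil, which had no untreated call) and Ccl7. With 1 library per group the difference was not tested. For the other 57 genes its size ran from 2.07 to 6.56.

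Lower after LPS and higher untreated were 15 of these genes. Among enzymes and proteases the differences were −7.60 for Dio2 (a thyroid hormone deiodinase), −7.08 for Lyz1, −6.34 for Ctsk and −5.53 for Napsa (napsin A). Among secreted and surface proteins they were −7.56 for Inhba, −6.89 for Itgb7 (integrin beta 7), −6.28 for Ly6a, −6.07 for Cxcl1, −5.49 for Ccr2, −5.26 for Flrt3 and −2.82 for Ccl7. The remaining ones were −6.70 for Hmga2, −6.26 for Plac8, −6.08 for Best1 (bestrophin 1) and −5.12 for Zfp462.

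Higher after LPS and lower untreated were 13. Hpgd differed by 5.73, Marco by 4.71, Itgax by 4.63, Cxcl9 by 4.36 and Adam23 by 4.29. Serpina3g and Serpina3f, close copies whose separate values are uncertain, differed by 4.17 and 3.50. Nrxn2 (4.04), Cd209f (3.99), Coro2b (3.90), Calb2 (calretinin, 3.87), Enpp2 (autotaxin, 3.55) and Kif2c (3.19) completed the group. Cxcl9 had 6 and 0 counts untreated, so its untreated ratio rests on few reads.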

How the results depend on the processing

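The counts of genes called moved with the size of change asked for and with the filter. At 1.5-fold 1012 genes were called higher and 1300 lower, at 4-fold 56 and 103. With a mean of at least 5 CPM 225 and 321 were called among 9805 genes, and on FPKM with a pseudocount of 1 and no counting interval, which changed unit, pseudocount and interval at once, 149 and 221. Under 3 other scalings, 2 other prior counts, no filter and protein-coding genes only, both counts stayed within 1.5 times those reported. No named gene reversed its direction under any alternative run, and of the comparisons of a named gene with an alternative 714 stayed within its counting interval and 120 did not. The medians of TLR4 components and of alternative activation genes, both near 0, changed sign with the scaling. The calls of H2-D1 and Ccl7 were lost under the 3 other scalings, and those of Adamts4, Arg1 and Cd34 under DESeq2 size factors and unscaled totals. Precision is limited by depth for genes of few counts, and the spread between animals or cultures is unknown. No replicate could be left out, since each group holds 1 library. No paired analysis was possible because each group has 1 library and the labels give no replicate numbers that pair them.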
